A study of Mus musculus with 4 samples.

Results

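Imprinted genes are expressed mainly or only from the copy inherited from one parent. The 43 imprinted genes described here were chosen by name, with earlier results of these data known. Of these, 19 are known to be expressed from the maternal copy, 23 from the paternal copy, and 1, Gnas, from either copy depending on the promoter. A probe under the gene's own name was found for 42 of the 43, with 77 probes in all among the 39429 non-control probes of the array. Rian had no probe under that name. Rtl1, a retrotransposon-derived gene of the placenta, had 1 probe, which was not well above background on any array. The other 41 were tested among 24150 genes or transcripts.

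Expression was measured in mouse embryonic kidney at E15.5, when nephrons are forming at the edge of the organ. Kidneys of hybrid 129 and C57BL/6 mice carrying the reporter Six2GFP were dissected and their cells sorted into Six2GFP(+) cells, called Six2GFP-positive here, and Six2GFP(-) cells, called Six2GFP-negative, with 2 one-colour arrays per group. Six2 is the transcription factor that keeps nephron progenitors of the cap mesenchyme undifferentiated, so the positive cells are those meant to be progenitors, and the negative cells are the remaining cells of the kidney. The labels name the negative cells nephron progenitors too and mention tamoxifen in a description field, which the protocols do not, so the groups rest on the titles. Nothing in the labels says whether the 2 arrays of a group came from separate litters or sorts, and p-values therefore measure only the spread between these arrays, which may be technical.

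Imprinted genes lie in clusters, each governed by a stretch of DNA methylated on one parental copy only in the egg or the sperm. Many imprinted genes act on growth before birth, and paternally expressed genes have often been found to promote growth and maternally expressed genes to restrain it. Several clusters hold a long noncoding RNA on one parental copy and protein-coding genes on the other. For some members the parental bias is known chiefly in one tissue: Ube3a in neurons, and Ascl2, Cd81, Tspan32, Tssc4, Osbpl5 and Nap1l4 in the placenta. The arrays do not separate the parental copies, so a level here is the sum of both, and the parental assignment is background rather than a measurement.

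The sort itself was visible in the arrays. The log2 signal of Six2, scaled as described next, was 5.58 and 5.74 in Six2GFP-positive cells, against -0.17 and -0.15 in Six2GFP-negative cells. Of 9 progenitor markers 8 were higher in positive cells, with Eya1 at a difference of 0.04 ± 0.09. Between 72.5% and 79.1% of spots per array were well above background, and none was saturated. In bulk RNA of a sorted population, fewer cells of a type and less RNA per cell cannot be told apart.

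Levels are log2 processed signals minus the 75th percentile of the same array, so 0 is a signal at that percentile, and a level of one gene cannot be ranked against that of another because probes differ in how well they bind. Differences are Six2GFP-positive minus Six2GFP-negative on that log2 scale, with limma's standard error and the Benjamini-Hochberg adjusted p from limma's fit over all 24150 genes (2 arrays each), and a gene is called at an adjusted p below 0.05. A gene with several probes is represented by the brightest.

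Of the 41 imprinted genes tested, 13 were higher in Six2GFP-positive cells, 17 were lower and 11 did not pass the test. Of all genes 20.7% were called higher and 18.3% lower, or 38.9% in either direction, so a call by itself was common. Of the 30 called members 14 differed at least 2-fold, 5 upward and 9 downward, where 4.14% of all genes were 2-fold or more higher and 13.6% were 2-fold or more lower. The arrays of the groups did not overlap for 38 of the 41, against 74.9% of all genes. The median difference of the 41 was -0.21, beside 0.15 over all genes. With the array median as the scale the median over all genes was 0.41, a shift of 0.25, and that of the members 0.042. Leaving out 1 array gave counts of higher members of 8 (positive array 1), 6 (positive array 2), 9 (negative array 1) and 6 (negative array 2), and of lower members between 12 and 14. Phlda2 and Rasgrf1, 2 of the 41, passed the filter on dim probes only through their negative arrays, and Phlda2 is among the 17 lower members and the 9 that were 2-fold or more lower.

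Split by parent, the maternally expressed members leaned toward the negative cells and the paternally expressed members went both ways. Among 18 maternally expressed genes tested, 4 were higher and 9 lower in Six2GFP-positive cells, with a median difference of -0.54 and a range of -5.51 to 1.22. Of all genes 20.7% were called higher and 18.3% lower. With no filter on dim probes the maternal counts fell to 1 higher and 7 lower. Among 22 paternally expressed genes, 9 were higher and 8 lower, with a median of -0.16 and a range of -3.93 to 1.98. With no filter on dim probes these were 9 and 7. Phlda2 is among the 9 lower maternal genes and Rasgrf1 among the 22 paternal genes. With the filter on all 4 arrays, which leaves both out, 4 of 17 maternal genes were higher and 8 lower (median -0.52). Of 21 paternal genes 9 were then higher and 8 lower (median -0.11). The ranges overlapped widely, and the difference between the medians was not tested, since genes of a cluster are not independent. The paternal median also changed sign with the scaling, being 0.039 after quantile normalization and 0.092 with the array median as the scale, and it was 0.059 without negative array 1.

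**Figure D1:**
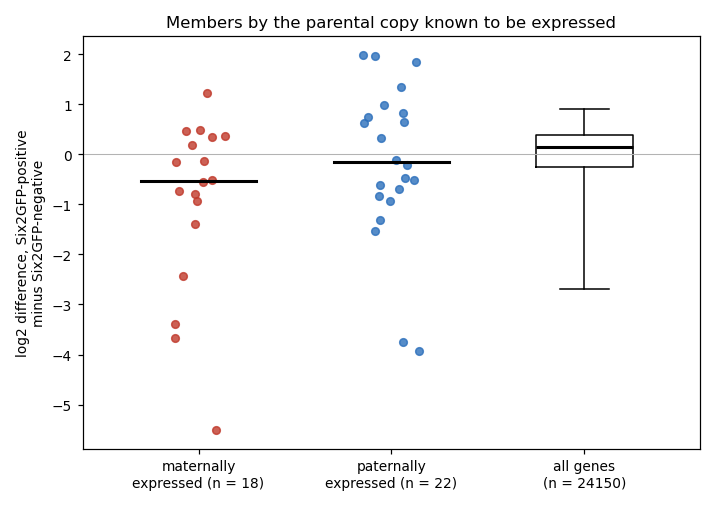
Each point is the log2 difference, Six2GFP-positive minus Six2GFP-negative, of 1 imprinted gene, sorted by the parental copy known to be expressed, with black bars at the medians of -0.54 (maternal) and -0.16 (paternal). The box holds the middle of all 24150 genes, with whiskers at the 5th and 95th percentiles (-2.70 and 0.90), and points of both parental groups lie beyond each whisker.

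Genes expressed from opposite parental copies were all called in the same direction within 2 clusters. All 3 tested genes of the Peg3 cluster were higher and all 4 of the Peg10-Sgce cluster were lower in Six2GFP-positive cells. Each of these clusters held maternally and paternally expressed genes. In the Mest and Igf2r-Airn clusters the 2 genes also shared a sign, but only 1 of each pair was called. In the Dlk1-Dio3 cluster 4 of 5 were lower and 1 was higher, and in the Snrpn-Ndn cluster 4 of 6 were higher and 1 lower. In the Kcnq1ot1 cluster 1 of 9 was higher and 4 lower, the 4 including Phlda2, which entered the test through its negative arrays. These counts are a description, beside 20.7% of all genes called higher and 18.3% lower, with no test of clusters against parents. Without any 1 of the 4 arrays, Zim1 and Ppp1r9a lost their calls, and fewer genes of the Snrpn-Ndn and Kcnq1ot1 clusters were called. With no filter on dim probes 2 of 3 Peg3 genes were higher and 3 of 4 Peg10-Sgce genes lower. The Snrpn-Ndn counts were then 3 higher and 1 lower, and the Kcnq1ot1 counts 0 higher and 3 lower.

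**Figure D2:**
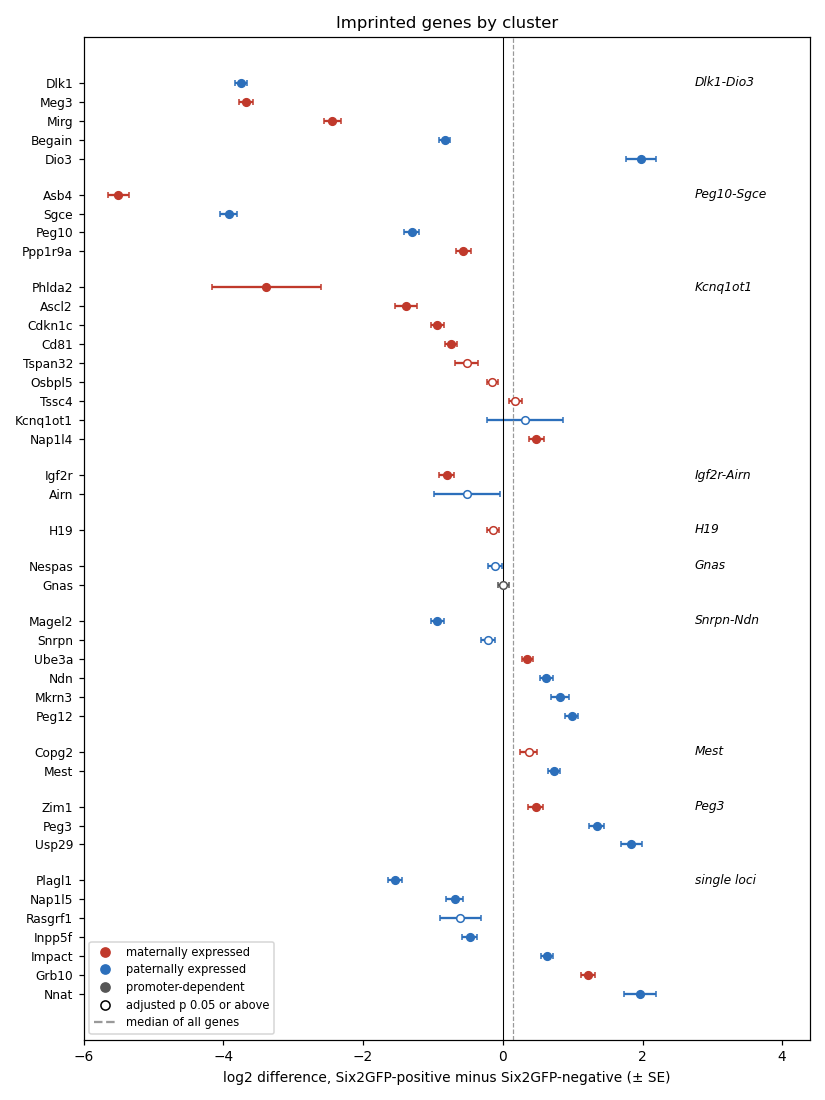
Log2 difference (Six2GFP-positive minus Six2GFP-negative) with its standard error for the 41 tested members, grouped by cluster and coloured by the parental copy known to be expressed. Filled points passed the test. The Peg3 genes lie right of 0, the Peg10-Sgce genes lie left of it, and in the Dlk1-Dio3 cluster Dio3 alone lies right.

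The Dlk1-Dio3 cluster on chromosome 12 is expressed in many embryonic tissues, with coding genes on the paternal copy and noncoding RNAs on the maternal copy. Its leading pair was lower in progenitors by nearly the same amount. Dlk1, a membrane protein with EGF repeats related to Notch ligands, stood at -0.89 and -0.96 in Six2GFP-positive cells, against 2.84 and 2.80 in Six2GFP-negative cells. That was 13.4-fold lower (difference -3.75 ± 0.08, adjusted p 5.0e-04). Meg3, the maternally expressed noncoding RNA of the cluster, stood at -2.20 and -2.07 in positive cells, against 1.58 and 1.49 in negative cells. Its difference was -3.67 ± 0.10 (adjusted p 5.0e-04), and on both genes the groups lay far apart beside the spread within them.

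The RNA that the Meg3 level was read from and a window before 1 Meg3 start are shown. The reason is that Dlk1 and Meg3, from opposite parental copies, were lower by nearly the same amount. The probe is the 60-base sequence of the scanner files at chr12:110809678-110809737 (mm9, plus strand). The promoter is RefSeq's 250 bases before 1 Meg3 start, at chr12:109540746-109540995 (GRCm38.p6, plus strand). Capitals mark a match to TGCCGC or its reverse complement GCGGCA, the hexamer that the imprint-keeping protein ZFP57 binds when methylated. This window was picked for its match, and the window before another Meg3 start had 0 matches.
Meg3 probe: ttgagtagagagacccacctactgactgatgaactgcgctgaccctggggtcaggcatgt
Meg3 promoter: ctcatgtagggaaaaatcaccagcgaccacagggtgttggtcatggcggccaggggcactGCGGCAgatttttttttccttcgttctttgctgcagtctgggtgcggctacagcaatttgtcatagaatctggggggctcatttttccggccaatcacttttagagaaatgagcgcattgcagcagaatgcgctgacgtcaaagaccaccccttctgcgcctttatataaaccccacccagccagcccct

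Mirg, a maternally expressed noncoding RNA that hosts many microRNAs downstream of Meg3, stood at -3.86 and -3.66 in Six2GFP-positive cells, against -1.23 and -1.41 in Six2GFP-negative cells. Its difference was -2.44 ± 0.13 (adjusted p 0.00107), and its second probe gave -3.53 ± 0.12. All 3 probes of Meg3 were lower too, by -3.67, -3.63 and -2.75, so the noncoding RNAs on this copy were lower wherever a probe sampled them. Begain, a paternally expressed gene at the Dlk1 end whose product associates with brain guanylate kinases, was at -1.75 and -1.82 in positive cells, against -0.94 and -0.96 in negative cells (difference -0.83 ± 0.08, adjusted p 0.00531).

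Dio3, at the far end of the same cluster, went the other way. It encodes the deiodinase that inactivates thyroid hormone, and it is expressed mainly from the paternal copy. Its level was -3.58 and -3.03 in Six2GFP-positive cells, against -5.27 and -5.31 in Six2GFP-negative cells, 3.95-fold higher (difference 1.98 ± 0.21, adjusted p 0.00604). After normexp correction the difference shrank to 1.17 with the 75th percentile and 1.24 with quantile normalization. Without negative array 2 the adjusted p was 0.0516. The whole range of differences among the paternally expressed genes was thus nearly reached within 1 cluster, at Dlk1 and Dio3.

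**Figure D3:**
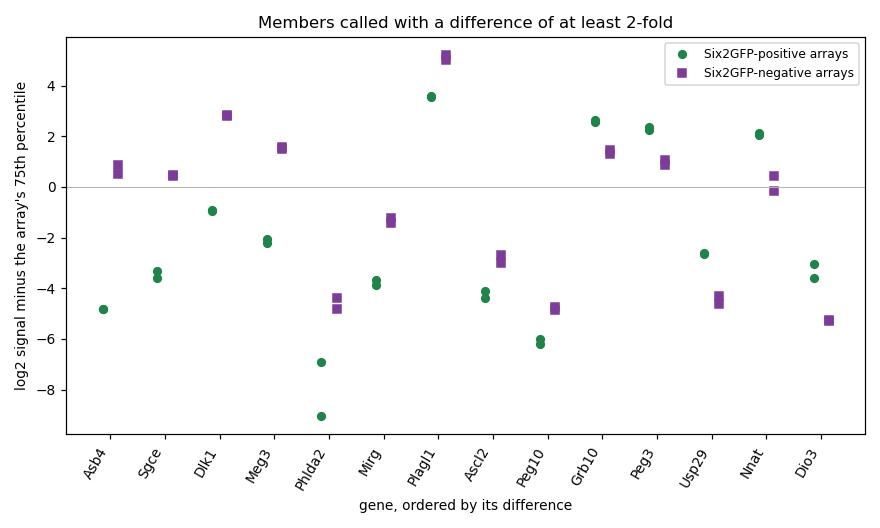
Level on each array (log2 signal minus the array's 75th percentile) of the 14 members called with a difference of at least 2-fold, Six2GFP-positive arrays as circles on the left and Six2GFP-negative arrays as squares on the right of each gene. The groups are apart for every gene shown. The positive arrays of Phlda2 (-6.92 and -9.06) and the negative arrays of Nnat (0.44 and -0.16) are the most spread of their kind.

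The Peg10-Sgce cluster on chromosome 6 was lower in progenitors throughout, and it held the single largest difference among the members. Asb4, a maternally expressed protein with ankyrin repeats and a SOCS box, which recruits substrates to a ubiquitin ligase, was at -4.83 and -4.83 in Six2GFP-positive cells, against 0.50 and 0.85 in Six2GFP-negative cells. That was 45.4-fold lower (difference -5.51 ± 0.15, adjusted p 5.0e-04). A second Asb4 probe, at chr6:5348463-5348522 (mm9), gave the same direction but only -1.13 ± 0.10, with -5.07 and -4.93 in positive cells against -3.92 and -3.83 in negative cells. The size of the Asb4 difference therefore depends on the probe.

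Sgce, the paternally expressed epsilon subunit of the sarcoglycan complex, was at -3.34 and -3.61 in Six2GFP-positive cells, against 0.47 and 0.44 in Six2GFP-negative cells, 15.2-fold lower (difference -3.93 ± 0.13, adjusted p 0.00055). Peg10, its paternally expressed neighbour, derived from a retrotransposon and needed for the placenta, was dim in both populations. The brighter of its probes read -6.20 and -6.01 in positive cells, against -4.85 and -4.75 in negative cells (difference -1.31 ± 0.11, adjusted p 0.0032). The other was not well above background on either positive array and at least 10.1-fold lower there than in negative cells, by the bound that sets a dim array to the lowest signal well above background. Across the alternatives the Peg10 difference ran between -4.10 and -1.02. The -4.10 without positive array 1 and the -4.04 without positive array 2 were read from this other probe, which then became the brightest. It gave -4.07 with all 4 arrays, so these values show a switch of probe and not the weight of 1 array. Since that probe was dim on the positive arrays, only the bound above holds for it.

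Ppp1r9a, or neurabin, a maternally expressed scaffold that ties protein phosphatase 1 to actin, was at -0.10 and -0.05 in Six2GFP-positive cells, against 0.58 and 0.39 in Six2GFP-negative cells. The difference of -0.56 ± 0.11 had an adjusted p of 0.0247, and the call was lost when any 1 of the 4 arrays was left out (adjusted p 0.055 to 0.113) with the array median as the scale (0.0765) and with no filter on dim probes (0.0538). The other 3 genes of the cluster were called under all 15 alternatives.

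The Peg3 cluster on chromosome 7 was higher in progenitors. Peg3, a paternally expressed zinc finger protein, was at 2.36 and 2.25 in Six2GFP-positive cells, against 1.06 and 0.87 in Six2GFP-negative cells, 2.54-fold higher (difference 1.34 ± 0.11, adjusted p 0.00315). Usp29, a paternally expressed ubiquitin peptidase read in the opposite direction from nearly the same place, was at -2.63 and -2.61 in positive cells, against -4.29 and -4.63 in negative cells, 3.58-fold higher (difference 1.84 ± 0.15, adjusted p 0.00285). Both were called under all 15 alternatives. Zim1, the maternally expressed zinc finger gene beside them, was at -1.91 and -1.93 in positive cells, against -2.30 and -2.49 in negative cells. Its difference was smaller, 0.47 ± 0.11 (adjusted p 0.0365), and its call was lost without any 1 of the 4 arrays (adjusted p 0.0557 to 0.147) and with no filter on dim probes (0.0736).

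Since Peg3 and Usp29 are divergent and moved together, the stretch between their starts is shown. It spans 163 bases in RefSeq's GRCm38.p6 at chr7:6730420-6730582 (plus strand, the direction of Usp29), with its 5 CpG sites in capitals and no match to TGCCGC on either strand.
Peg3-Usp29: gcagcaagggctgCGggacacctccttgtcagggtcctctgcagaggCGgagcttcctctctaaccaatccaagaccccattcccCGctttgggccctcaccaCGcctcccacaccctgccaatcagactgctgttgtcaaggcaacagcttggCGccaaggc

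In the Snrpn-Ndn cluster on chromosome 7, known from Prader-Willi and Angelman syndromes, the paternally expressed genes did not move as one. Peg12, a relative of the Frat proteins that bind GSK3, was at 1.30 and 1.30 in Six2GFP-positive cells, against 0.26 and 0.37 in Six2GFP-negative cells, 1.98-fold higher (difference 0.99 ± 0.09, adjusted p 0.00381). Mkrn3, a makorin ring finger protein, was at -1.71 and -1.50 in positive cells, against -2.51 and -2.34 in negative cells (difference 0.82 ± 0.13, adjusted p 0.0149). Ndn, or necdin, of the MAGE family, was at 0.98 and 0.87 in positive cells, against 0.34 and 0.27 in negative cells (difference 0.62 ± 0.09, adjusted p 0.0138). Of these, Peg12 alone was called under every alternative.

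Magel2, a MAGE protein whose gene lies next to Ndn, was lower in Six2GFP-positive cells, at -3.40 and -3.29, against -2.38 and -2.45 in Six2GFP-negative cells (difference -0.94 ± 0.09, adjusted p 0.00487). Neighbouring paternally expressed genes thus had opposite signs, under all 15 alternatives. Snrpn, a splicing protein whose start region holds the imprinting centre of the cluster, was at -0.21 ± 0.11 and did not pass (adjusted p 0.186). Of its other probes 1 was called on its own (-0.36 ± 0.09, adjusted p 0.0393 over all probes) and 1 was not (-0.40 ± 0.12, 0.0695), and the mean of all 3 was -0.32 and passed (adjusted p 0.0462). With the array median as the scale the difference of the brightest was 0.042.

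Ube3a, the maternally expressed ubiquitin ligase of the Snrpn-Ndn cluster, was at -0.42 and -0.39 in Six2GFP-positive cells, against -0.75 and -0.77 in Six2GFP-negative cells (difference 0.35 ± 0.08, adjusted p 0.0375). Its second probe gave -0.30 ± 0.49, well within its error, and with the mean of both probes the difference was 0.024 (adjusted p 0.946). With no filter on dim probes its adjusted p was 0.0798. Calls of Ube3a and Ndn were lost without any 1 of the 4 arrays (adjusted p 0.102 to 0.179 for Ube3a, 0.0544 to 0.0781 for Ndn). That of Mkrn3 was lost without positive array 2 or either negative array (0.0572 to 0.0744).

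The Kcnq1ot1 cluster, further along chromosome 7, was mostly lower or did not pass. Cdkn1c, the maternally expressed cyclin-dependent kinase inhibitor p57, which marks cells leaving the cell cycle, was bright in both populations. It stood at 5.003 and 5.10 in Six2GFP-positive cells, against 5.94 and 6.04 in Six2GFP-negative cells, 1.92-fold lower (difference -0.94 ± 0.09, adjusted p 0.00517). It was called under all 15 alternatives, as was Ascl2. Ascl2, a basic helix-loop-helix factor needed in the placenta, was at -4.37 and -4.12 in positive cells, against -3.02 and -2.70 in negative cells. Its difference was -1.39 ± 0.16 (adjusted p 0.00767). After normexp correction that shrank below 2-fold, to -0.89 with the 75th percentile and -0.76 with quantile normalization.

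Phlda2, a pleckstrin homology domain protein that limits placental growth, was near background and unevenly measured. It read -6.92 and -9.06 in Six2GFP-positive cells, against -4.80 and -4.40 in Six2GFP-negative cells, and only 1 of the 2 positive arrays was well above background, so that it entered the test through its negative arrays. Its difference of -3.39 ± 0.78 (adjusted p 0.0371) was not called without either negative array (0.112 and 0.146), with no filter on dim probes (0.069) or after quantile normalization (0.0536), and after normexp correction it shrank to as little as -0.75. Cd81, a widely expressed tetraspanin, was at 4.24 and 4.22 in positive cells, against 4.93 and 5.01 in negative cells (difference -0.74 ± 0.09, adjusted p 0.00738). Without positive array 2 its adjusted p was 0.0568.

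Nap1l4, a histone chaperone at the edge of the same cluster, was the one member there above its negative level by the test. It was at 1.73 and 1.55 in Six2GFP-positive cells, against 1.19 and 1.12 in Six2GFP-negative cells (difference 0.48 ± 0.11, adjusted p 0.0337), and the call was lost without any 1 of the 4 arrays (adjusted p 0.0869 to 0.142), after quantile normalization (0.0662) and with no filter on dim probes (0.0695). A second Nap1l4 probe gave 0.34 ± 0.09 and did not pass (adjusted p 0.0503 over all probes). Tspan32, a tetraspanin of blood cells, at -0.52 ± 0.17 (adjusted p 0.0797), Tssc4 at 0.18 ± 0.09 (0.202) and the lipid-transfer protein gene Osbpl5 at -0.15 ± 0.08 (0.226) did not pass. Tspan32 passed after normexp and the 75th percentile (-0.33, adjusted p 0.0498), Tssc4 with the array median as the scale (0.43, 0.042), and Osbpl5 after quantile normalization (-0.32, 0.0471) and normexp with quantile normalization (-0.33, 0.0193).

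Both long RNAs that silence their neighbours on the paternal copy, Kcnq1ot1 and Airn, were detected in both populations but differed, on the brightest probe of each, more between the negative arrays than between the groups. Kcnq1ot1 stood at -1.06 and -1.30 in Six2GFP-positive cells, against -0.75 and -2.24 in Six2GFP-negative cells (difference 0.32 ± 0.54, adjusted p 0.666). Airn stood at 0.54 and 0.40 in positive cells, against 1.63 and 0.33 in negative cells (difference -0.51 ± 0.47, adjusted p 0.433). Negative array 1 was above negative array 2 by 1.49 for Kcnq1ot1 and by 1.30 for Airn, where the 95th percentile of that gap over all genes was 0.70. On these probes the groups overlapped, and the outcome turned on 1 array: Kcnq1ot1 was higher without negative array 1 (1.07, adjusted p 0.043), and Airn was lower without negative array 2 (-1.16, adjusted p 0.0303).

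The probes of these 2 RNAs are shown because each RNA is very long and a probe samples 1 point of it. Those of Kcnq1ot1 lie on the minus strand of chromosome 7 at chr7:150440140-150440199 and chr7:150434020-150434079 (mm9), and gave differences of 0.32 and 0.29, with the groups overlapping on both. Those of Airn lie on the plus strand of chromosome 17 (mm9), the first at chr17:12944784-12944843, the last at chr17:13008303-13008362. The brightest is the first, and on the other 3 the groups did not overlap. The middle pair were lower by -0.63 ± 0.27 (adjusted p 0.133 over all probes) and -0.44 ± 0.18 (0.131) and did not pass. The last alone was called, at -1.14 ± 0.17 (adjusted p 0.0137 over all probes), with -4.47 and -4.08 in positive cells against -3.06 and -3.21 in negative cells.
Kcnq1ot1 probe 1: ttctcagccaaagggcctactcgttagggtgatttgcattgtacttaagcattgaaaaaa
Kcnq1ot1 probe 2: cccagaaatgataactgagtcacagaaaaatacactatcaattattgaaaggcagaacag
Airn brightest probe: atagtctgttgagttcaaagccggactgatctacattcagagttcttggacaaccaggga
Airn last probe: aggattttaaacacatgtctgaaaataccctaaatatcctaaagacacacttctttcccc

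Igf2r, the maternally expressed receptor that clears the growth factor IGF2 and that Airn silences on the paternal copy, was lower in progenitors. It stood at 1.27 and 1.38 in Six2GFP-positive cells, against 2.21 and 2.04 in Six2GFP-negative cells (difference -0.80 ± 0.11, adjusted p 0.0111). Leaving out positive array 1 gave an adjusted p of 0.0609, and leaving out positive array 2 gave 0.0532. Igf2 itself, which was not among the members, was at 1.21 and 0.66 in positive cells, against 1.77 and 1.04 in negative cells, with a difference of -0.47 ± 0.33 that did not pass (adjusted p 0.317). Leaving out 1 array moved it between -0.84 (without negative array 2) and -0.11 (without negative array 1), never past the threshold. H19, the maternally expressed noncoding RNA that shares enhancers with Igf2, gave a strong signal on every array. It stood at 6.69 and 6.75 in positive cells, against 6.81 and 6.90 in negative cells.

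The H19 difference was small, -0.14 ± 0.09 (adjusted p 0.279), and a second H19 probe gave -0.10 ± 0.09. After quantile normalization it was -0.50 and passed (adjusted p 0.0157), so at this brightness the H19 call depends on the scaling.

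Gnas encodes the stimulatory G protein alpha subunit and, from other promoters, transcripts expressed from one parental copy. Its brightest probe stood at 5.41 and 5.43 in Six2GFP-positive cells, against 5.41 and 5.42 in Six2GFP-negative cells (difference 0.01 ± 0.08, adjusted p 0.942). A dimmer probe at chr2:174122337-174122396 (mm9), which the scanner files describe as a product of the XL exon, a paternally expressed form in mouse, differed. It read -5.57 and -5.77 in positive cells, against -3.94 and -4.45 in negative cells, a difference of -1.47 ± 0.21 (adjusted p 0.0122 over all probes). A probe at chr2:174163501-174163560 gave -0.33 ± 0.11 (adjusted p 0.0813). Another Gnas probe, at chr2:174125482-174125541, was not well above background on any array. The antisense transcript Nespas, paternally expressed, was at -0.11 ± 0.10 (adjusted p 0.439).

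Mest, a paternally expressed gene of mesoderm whose protein resembles hydrolases, was bright in both populations and higher in progenitors. It stood at 6.53 and 6.60 in Six2GFP-positive cells, against 5.83 and 5.83 in Six2GFP-negative cells, 1.67-fold higher (difference 0.74 ± 0.08, adjusted p 0.00727). Its other probes gave 0.86 ± 0.12 and 0.69 ± 0.09, and without positive array 2 the adjusted p was 0.0572. Copg2, a coatomer subunit whose gene meets the end of Mest on the opposite strand, was at 1.18 and 1.22 in positive cells, against 0.70 and 0.95 in negative cells, and did not pass (difference 0.37 ± 0.12, adjusted p 0.0807). It passed with the array median as the scale (0.63, adjusted p 0.0257).

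Of the members at single loci, Grb10, Nnat and Impact were higher in progenitors. Grb10, an adaptor that dampens insulin receptor signalling and is maternally expressed outside the brain, stood at 2.56 and 2.66 in Six2GFP-positive cells, against 1.31 and 1.46 in Six2GFP-negative cells. At 2.33-fold (difference 1.22 ± 0.10, adjusted p 0.00334) it was the only maternally expressed member called at least 2-fold higher. Nnat, or neuronatin, a small paternally expressed membrane protein of the endoplasmic reticulum, was at 2.14 and 2.07 in positive cells, against 0.44 and -0.16 in negative cells, 3.90-fold higher (difference 1.96 ± 0.23, adjusted p 0.0073). Impact, a paternally expressed regulator of translation, was at 1.55 and 1.56 in positive cells, against 0.96 and 0.86 in negative cells (difference 0.64 ± 0.09, adjusted p 0.0115), and its call was lost without either positive array or negative array 2 (adjusted p 0.062 to 0.0766).

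Plagl1, a paternally expressed zinc finger transcription factor that activates other imprinted genes in mouse, was lower in progenitors. It was at 3.55 and 3.60 in Six2GFP-positive cells, against 5.20 and 5.03 in Six2GFP-negative cells, 2.91-fold lower (difference -1.54 ± 0.10, adjusted p 0.00184). All 4 of its probes were lower, the bright pair by -1.54 and -1.56 and the dim pair by -0.61 and -0.34, the smallest of which did not pass (adjusted p 0.0523 over all probes).

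Nap1l5, of the nucleosome assembly family, was dim, at -6.70 and -6.62 in Six2GFP-positive cells against -6.09 and -5.86 in Six2GFP-negative cells (difference -0.69 ± 0.12, adjusted p 0.0189). Its sign did not hold: after normexp correction the difference was 0.018 (adjusted p 0.863). The call was also lost after normexp with quantile normalization (-0.077, adjusted p 0.427), quantile normalization (-0.45, 0.121), the array median as the scale (-0.44, 0.064) and a variance trend (0.0542), and without either positive array or negative array 2 the adjusted p was 0.0695 to 0.0912. Inpp5f, a phosphoinositide phosphatase, was at -3.25 and -3.11 in positive cells, against -2.64 and -2.77 in negative cells (difference -0.48 ± 0.10, adjusted p 0.034), a call lost without any 1 of the 4 arrays (adjusted p 0.088 to 0.148). With all 4 arrays it was also lost after quantile normalization (-0.22, adjusted p 0.157), with the array median as the scale (-0.22, 0.183), after normexp with quantile normalization (-0.17, 0.127) and with no filter on dim probes (0.0698). Rasgrf1, a Ras exchange factor, was not well above background on either positive array. It read -7.20 and -7.99 there, against -6.97 and -7.00 in negative cells. Only a bound therefore holds for Rasgrf1, of at least 1.04-fold lower in positive cells. The fitted difference of -0.61 ± 0.29 rests on those dim readings and did not pass (adjusted p 0.177). Dropping positive array 1 moved this difference to -1.003, and dropping positive array 2 moved it to -0.21. Normexp and the 75th percentile gave 0.033, so no size beyond the bound is shown.

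The promoters of Mest and Plagl1 are shown because both genes are paternally expressed, moved in opposite directions and held the ZFP57 hexamer. Each is RefSeq's 250 bases before a start on the plus strand of GRCm38.p6, with the hexamer on either strand in capitals. The windows are Mest at chr6:30737800-30738049 and Plagl1 at chr10:13090582-13090831. That of Mest was picked for its matches, and the window before another Mest start had 0.
Mest promoter: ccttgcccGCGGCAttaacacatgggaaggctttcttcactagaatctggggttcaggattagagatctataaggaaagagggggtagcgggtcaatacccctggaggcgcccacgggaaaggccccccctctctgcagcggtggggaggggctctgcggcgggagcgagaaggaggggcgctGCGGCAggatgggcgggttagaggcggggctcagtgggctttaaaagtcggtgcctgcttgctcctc
Plagl1 promoter: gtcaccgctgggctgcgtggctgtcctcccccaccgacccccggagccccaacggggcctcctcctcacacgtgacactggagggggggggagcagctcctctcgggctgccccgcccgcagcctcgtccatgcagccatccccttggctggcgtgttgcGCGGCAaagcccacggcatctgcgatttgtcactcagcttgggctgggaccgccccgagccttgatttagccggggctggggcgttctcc

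RefSeq held 53 promoters for 35 of the members. The hexamer TGCCGC, counted on both strands over the 250 bases before each start, was present in 8 of the 53, or 15.1%, against 8.68% of all 32851 promoters in the table. It occurred in 21.4% of promoters of higher members and in 14.3% of those of lower members, on 14 and 21 promoters. The matches among higher members lay in overlapping windows of Mest and in Zim1, so Mest is counted more than once. Those among lower members lay in Meg3, Nap1l5 and Plagl1. The percentages therefore show no contrast between higher and lower genes. Several promoters belong to one gene and share bases, and a match is only a match of letters. The member promoters held a median of 14 CpG sites, against 6 over all promoters.

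A gene's probes mostly agreed in sign. Of the 23 members with several kept probes, all probes had the same sign for 21, with Gnas and Ube3a as the exceptions. For 5 members the probes differed by more than 2-fold, namely Asb4, Peg10, Gnas, Plagl1 and Mirg. Dlk1 was at the other extreme, with -3.75 and -3.74. The second probe of Impact gave 0.71 ± 0.23 and did not pass (adjusted p 0.0788 over all probes). Those of Zim1 (0.89 ± 0.16, adjusted p 0.0206) and Ppp1r9a (-1.11 ± 0.20, 0.022) passed.

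**Figure D4:**
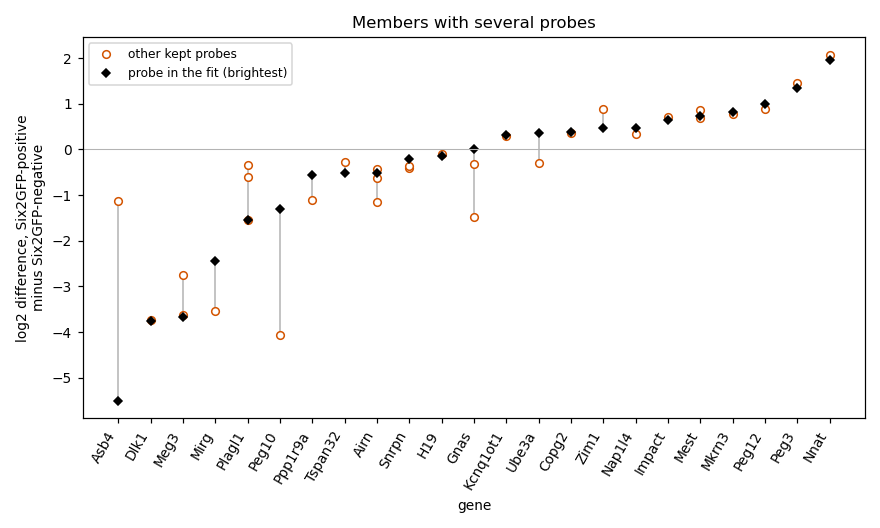
Log2 difference (Six2GFP-positive minus Six2GFP-negative) of every kept probe of the 23 members with several, ordered by the brightest probe, which is drawn as a diamond. Grey lines join the probes of a gene. Asb4 (-5.51 and -1.13) and Peg10 (-1.31 and -4.07) have the widest gaps, and most other genes have probes close together.

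Genes that set, read or keep imprints moved little. Of 20 listed, 19 were tested, 6 were higher and 2 lower in Six2GFP-positive cells, with a median difference of 0.31 beside 0.15 over all genes, and none reached 2-fold. That is 42.1% called, against 38.9% of all genes. Setdb1, the histone methyltransferase recruited through TRIM28, was at 0.78 and 0.89 in positive cells, against 0.29 and 0.22 in negative cells (difference 0.58 ± 0.09, adjusted p 0.0161). Arid4b, a chromatin protein that acts on imprinting centres in mouse, was at 0.36 and 0.39 in positive cells, against -0.10 and -0.21 in negative cells (0.53 ± 0.09, adjusted p 0.0188). Dnmt3l, a cofactor of DNA methylation in germ cells, was dim, at -5.21 and -5.14 in positive cells against -4.52 and -4.60 in negative cells (-0.61 ± 0.09, adjusted p 0.0131). Tet2, which oxidises methylcytosine, was at 0.14 and 0.17 in positive cells, against 0.63 and 0.56 in negative cells (-0.45 ± 0.08, adjusted p 0.0243). All 4 lost their calls without any 1 of the 4 arrays (adjusted p 0.0548 to 0.122), and with the array median as the scale Dnmt3l (-0.36, adjusted p 0.0532) and Tet2 (-0.19, 0.208) did not pass. The Dnmt3l difference also shrank and lost its call after normexp with the 75th percentile (-0.14, adjusted p 0.191), normexp with quantile normalization (-0.093, 0.342) and quantile normalization (-0.31, 0.0733), and Tet2 lost its call with no filter on dim probes (0.0556).

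A further 31 imprinted genes that were not members were listed for comparison, with 4 higher and 10 lower of 29 tested and a median of -0.08. That is 48.3% called, against 38.9% of all genes. Among the 10, Htr2a and Calcr were not well above background on either positive array and passed the filter only through their negative arrays. Sfmbt2, a Polycomb-associated gene expressed from the paternal copy, was at -1.19 and -1.08 in Six2GFP-positive cells, against -3.42 and -3.61 in Six2GFP-negative cells (difference 2.39 ± 0.11, adjusted p 9e-04). Atp10a, a phospholipid flippase, was at -2.68 and -2.32 in positive cells, against -3.85 and -3.91 in negative cells (1.38 ± 0.15, adjusted p 0.00669, or 0.0536 without negative array 2). Dcn, or decorin, a matrix proteoglycan of connective tissue, was at 0.08 and -0.39 in positive cells, against 4.09 and 3.93 in negative cells (-4.17 ± 0.19, adjusted p 0.000879). Kcnq1, a potassium channel whose gene holds the Kcnq1ot1 start, was at -4.57 and -5.25 in positive cells, against -1.34 and -1.50 in negative cells (-3.49 ± 0.26, adjusted p 0.00249).

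Markers of other kidney cell types moved with the same contrast, and their part in the members' differences was not tested. Stromal markers were lower in Six2GFP-positive cells for 7 of 8, with a summed linear level, in units of each array's 75th percentile, of 12.1 to 14.5 in positive cells against 89.9 to 97.0 in negative cells, and Tbx18 was not well above background on either positive array. Markers of ureteric bud and collecting duct were lower for 8 of 9 (6.94 to 7.89 against 32.9 to 41.5 in negative cells), of early nephron and tubule for 9 of 10 (3.92 to 4.07 against 29.8 to 33.7) and of podocytes for 4 of 5 (0.64 to 0.68 against 4.74 to 5.39). Endothelial markers were lower for 6 of 7 (5.97 to 6.33 against 12.5 to 13.5), erythroid for 5 of 5 (9.92 to 14.6 against 284 to 300.1) and macrophage for 5 of 7 (6.03 to 8.60 against 11.5 to 12.8). Neural markers split, with 1 higher and 3 lower of 5 (3.34 to 3.51 against 1.56 to 1.62, Stmn2 not being well above background on the positive arrays). Each sum is set mostly by its brightest probes, so it does not measure how far a cell type was depleted. The brightest in positive cells were Kdr (endothelial, difference 0.07 ± 0.10), Csf1r (macrophage, -0.53 ± 0.21) and Hoxb7 (ureteric bud, -0.31 ± 0.14), none of them called. Foxd1, the stromal marker not called, was at 0.28 and 0.60 in positive cells, against 0.71 and 0.60 in negative cells (-0.21 ± 0.14). Elavl4, the brightest neural marker, was the 1 higher (2.00 ± 0.08). The 6 endothelial markers called were lower by -1.68 to -5.60.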

How the data were processed

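Labelled cRNA of sorted cells was hybridised to Agilent arrays of 60-base probes, 1 per sample, per the labels' protocols. Feature Extraction 10.7.3.1 (protocol GE1_107_Sep09) quantified the scans, per the file headers. The deposited scanner files hold linear intensity per spot, with probe positions on mm9 and no normalization between arrays. The deposited series table holds the same intensity (99.8% of probes agree to 0.01 log2), is linear and uncentred, and has array medians of 114 and 110 in positive cells and 158 and 143 in negative cells. The authors' own normalization and test are not given in the sources used here.

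Flagged outlier spots (108 to 174 on an array) were dropped. Processed signals were turned to log2, averaged per probe and lowered by each array's 75th percentile over 39395 probes. A probe stayed in if both arrays of either group were well above background (30012 probes), and each gene took its brightest probe. A gene dim on both arrays of a group gets a bound instead of a fold. Members were matched by the file's gene name, others through accessions in RefSeq's GRCm38.p6 gene table (25964 probes), by current symbol (3183) or by the file's name (10171). The test was limma 3.58.1's moderated fit under R 4.3.3, two-sided, with Benjamini-Hochberg adjustment and a threshold of 0.05, tried first on simulated data. Values of single probes come from the same fit over all kept probes.

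The members, the lists and the parental assignments, which come from textbook knowledge, were chosen with earlier results of these data known. Named genes were all called members, 8 fixed members, Six2, Igf2 and the 2 largest called differences each way of the other lists. Across genes, arrays correlated at 0.995 within the positive group and at 0.994 within the negative group, and 2 arrays per group limit the precision. All arrays had 1 recorded scan time, so no batch could be fitted. Alternatives were other scalings, normexp with an offset of 50, the series table, other filters on dim probes, the mean of a gene's probes, every probe on its own, a variance trend, the replicate number as a block, and each array left out.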

Additional observations from a re-analysis of the deposited data

How the results depend on the processing

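Of the 30 called members, 16 were called under all 15 alternatives, 23 under every alternative that kept all 4 arrays, and 29 kept their direction throughout, Nap1l5 being the exception (0.018 after normexp and the 75th percentile). With the array median as the scale every difference rose, 10810 genes were called higher and 3767 lower against 4989 and 4413 in the main comparison, and 15 members were higher and 14 lower against 13 and 17. The medians were then 0.042 (members), -0.29 (maternal) and 0.092 (paternal). Quantile normalization gave a paternal median of 0.039. Normexp with the 75th percentile gave -0.13 for members and 0.025 for the paternal genes. With no filter on dim probes 2618 genes were higher. The mean of probes gave a member median of -0.40 and a Gnas difference of -0.60 (adjusted p 0.0248), and normexp with quantile normalization gave -0.28 for Gnas (adjusted p 0.0243). The cause of these changes was not tested.

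Leaving out 1 array, which leaves a lone array assumed to vary like the others, gave 1253 to 2045 genes higher, 6 to 9 members higher and 12 to 14 lower, and medians of -0.42 to -0.17 (members), -0.66 to -0.42 (maternal) and -0.31 to 0.059 (paternal, the last without negative array 1). The replicate numbers come from the titles, which do not say what they mark. Deviations of same-numbered arrays correlated at 0.22 over 2 pairs. With the replicate number as a block 4244 genes were higher and 4371 lower, and 12 members were higher and 16 lower: Ube3a (adjusted p 0.0595), Inpp5f (0.0605) and Phlda2 (0.0539) were no longer called, while Tspan32 (0.0323) and Igf2 (0.0482) passed. With 2 arrays per group, a difference that misses the threshold is not shown to be absent, and levels near background, as of Peg10, Nap1l5, Phlda2 and Rasgrf1, are the least certain.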

Other observations

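Igf2 had 1 probe under its name and was higher on array 1 than on array 2 in both populations, by 0.55 in Six2GFP-positive cells and 0.73 in Six2GFP-negative cells. The median size of that gap over all genes was 0.12 in positive cells and 0.14 in negative cells. Phlda2 had the widest gap of the members within the positive arrays, at 2.14.

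Limited to the 22281 genes well above background on all 4 arrays, 29 of 39 members were called, where 37.5% of those genes were. Limited to the 17902 genes with a current symbol, 30 of 41 members were called, against 42.1% of those genes. Both sets were chosen after the data were seen and carry no test of the members.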
